A study of Mus musculus with 18 samples.

Results

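The serum- and glucocorticoid-regulated kinases Sgk1 and Sgk3 and the ubiquitin ligase Nedd4l, which Sgk kinases phosphorylate, were followed through hippocampal RNA of mice after chronic social defeat stress. They make up 3 of the 57180 gene identifiers in the deposited count table, and each matched 1 row. The set was chosen because Sgk1 was lower than in controls in both groups of defeated mice. The levels of Sgk1 against control are therefore a description here and carry no test. Sgk3 and Nedd4l were tested in every comparison, and Sgk1 was tested between the defeated groups.

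Hippocampal tissue came from adolescent male C57BL/6J mice recorded as wild type, with 1 poly(A)-enriched, stranded library per mouse and 6 mice in each of 3 groups. The first group, CSDS with exercise, was defeated by resident mice in a resident-intruder procedure and had aerobic training that began before the defeat period and went on through it. The second group, CSDS, was defeated without training, and the third, control, received no treatment. The study asked what defeat does to hippocampal RNA and how exercise alters it. No group of trained mice without defeat is among the samples analysed here, so the effect of training on its own was not measured. All 18 libraries carry the same batch label.

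Levels are given in CPM, the usual scaling of counts to library size. Total counts ran from 18911080 to 24136591 per library. The hippocampal markers Prox1, Neurod6, Wfs1 and Zbtb20 were present in every library. Control replicate 2 stood apart, with 10.1 CPM of Prox1, by plain library totals, against at least 79.7 CPM in the other 17 libraries, and 39.6 CPM of Zbtb20 against at least 134 CPM. Its 10 neocortical markers averaged 5.57 log2 CPM, against 3.32 to 3.55 in the other controls. The same markers averaged 3.21 to 3.78 with exercise and 3.44 to 3.66 in CSDS. Which tissue that library holds was not tested. Each member is given below with and without that library where it changed a value. Choroid plexus markers varied widely, with Ttr, the transthyretin of that epithelium, between 12.3 and 8030 CPM. The thalamic marker Tcf7l2 reached 148 CPM in the highest library against a median of 5.55 CPM.

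Sgk kinases belong to the AGC family, like Akt, and act downstream of PI3K. The mTORC2 complex phosphorylates their hydrophobic motif and Pdk1, encoded by Pdpk1, their activation loop. Sgk1 is controlled strongly at the RNA level and is a classical target of the glucocorticoid and mineralocorticoid receptors, and in the brain much of it is found in oligodendrocytes as well as in neurons. Sgk3 carries a phox homology domain that places it on endosomes. Nedd4l is a HECT-type ligase that marks sodium channels and other membrane proteins for removal, and its phosphorylation by Sgk1 makes it bind 14-3-3 proteins and leave those targets alone.

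In GRCm38 coordinates of GENCODE M21, Sgk1 (ENSMUSG00000019970) lies on the plus strand at chr10:21882184-21999903, and Sgk3 (ENSMUSG00000025915) on the plus strand at chr1:9798107-9900845. The annotation gives Sgk1 13 transcripts and Sgk3 12. The opposite-strand genes Gm6195 and Gm22607 overlap Sgk3. Whether the counting used strand is not stated by the labels or the table, so reads from those genes cannot be told apart from reads of Sgk3.

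RefSeq lists 6 starts for Sgk1 on GRCm38.p6. The windows of 250 bases before the last 2 of them are printed because 1 of them holds the complete palindrome bound by glucocorticoid receptor dimers, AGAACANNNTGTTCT, and the other lies before the start nearest the 3′ end, which has no copy. Capitals mark the palindrome and any single 6-letter arm, AGAACA or TGTTCT.
Sgk1, chr10:21993640-21993889, plus strand, before the start at 21993890: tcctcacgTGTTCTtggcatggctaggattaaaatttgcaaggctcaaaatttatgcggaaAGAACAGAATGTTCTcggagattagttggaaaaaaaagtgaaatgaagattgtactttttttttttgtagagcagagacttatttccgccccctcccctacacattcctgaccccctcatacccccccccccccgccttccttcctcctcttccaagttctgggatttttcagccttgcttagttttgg
Sgk1, chr10:21994416-21994665, plus strand, before the start at 21994666: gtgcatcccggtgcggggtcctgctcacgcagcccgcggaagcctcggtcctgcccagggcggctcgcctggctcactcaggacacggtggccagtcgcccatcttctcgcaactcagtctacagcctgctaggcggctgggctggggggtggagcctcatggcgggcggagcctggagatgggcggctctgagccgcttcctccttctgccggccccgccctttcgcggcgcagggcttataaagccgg
The palindrome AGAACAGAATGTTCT occupies chr10:21993701-21993715, and its first base is 189 bases before the start at 21993890 and 965 bases before the start at 21994666. Neither window overlaps an Sgk1 exon of GENCODE M21. Of 32817 promoter windows of this length in the RefSeq table, 3 held the palindrome on either strand, or 0.009%. The arm AGAACA, or its reverse complement TGTTCT, which also lies inside every palindrome, was in 16.08% of the windows and in 3 of the 6 Sgk1 windows. A match is a description of the letters, and binding was not measured.

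Sgk1 was lower in both defeated groups than in controls, which is how the set was chosen. In mice with CSDS and exercise its level ran from 57.1 to 121 CPM with a median of 74.9 CPM, in mice with CSDS from 69.8 to 110 CPM with a median of 79.5 CPM, and in controls from 108 to 199 CPM with a median of 153 CPM. Of the defeated mice, 5 of 6 with exercise and 4 of 6 without lay below the lowest control. The mice that reached the control range were exercise replicate 5, at 120.6 CPM, and CSDS replicates 5 and 6, at 107.8 and 110.1 CPM. The means were 79.5 ± 22.0 CPM with exercise, 86.4 ± 18 CPM with CSDS and 151 ± 32.3 CPM in controls (SD, n = 6 each), and the control mean was 153 ± 35.8 CPM without replicate 2 (n = 5).

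**Figure D1:**
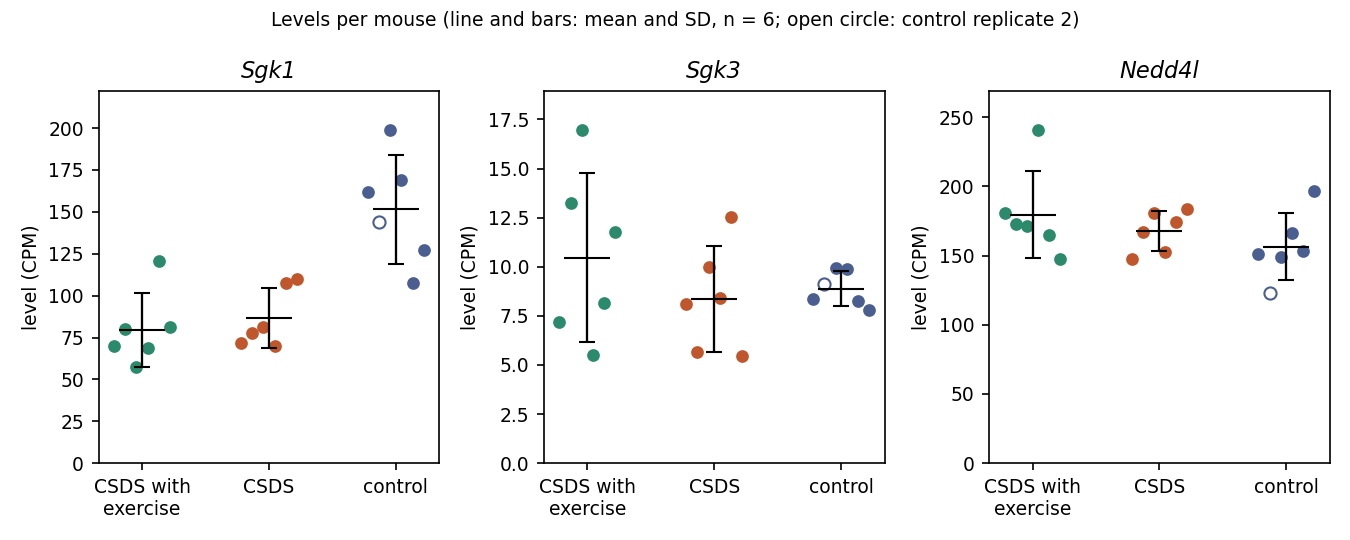
Level of Sgk1, Sgk3 and Nedd4l in each mouse, in CPM on a linear axis from 0, with CSDS and exercise at left, CSDS in the middle and control at right. Points are mice, the line and bars are the mean and SD of 6 mice, and the open circle is control replicate 2. Most defeated mice lie below every control for Sgk1, while the groups overlap for Sgk3 and Nedd4l and the spread of Sgk3 is wider in the defeated groups.

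Relative to controls, Sgk1 had a log2 fold change of -0.93 ± 0.18 (SE) with exercise, a ratio of 0.525, and of -0.81 ± 0.18 in CSDS, a ratio of 0.571. Both comparisons share the control libraries. Without control replicate 2 the log2 fold changes were -0.94 and -0.82, and over the 33 alternative settings they lay between -1.09 and -0.80 with exercise and between -0.89 and -0.72 in CSDS. The smallest CSDS difference, -0.72, came without control replicate 3, which had the highest Sgk1 level. With exercise the edgeR test called 3 of 16738 genes, or 0.0179%, and in CSDS against control 0 of 16738, or 0%. Sgk1 was selected on these contrasts, so nothing is read from its place among them.

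Between the defeated groups Sgk1 did not pass the test. CSDS with exercise against CSDS gave a log2 fold change of -0.12 ± 0.18, with an edgeR adjusted p of 0.756 and a 95% interval of -0.49 to 0.25. That interval contains 0 and reaches 0.71-fold and 1.19-fold. None of the 3 members was called in this comparison, in which edgeR called 0 of 16738 genes (0%). At an unadjusted p under 0.05 it had 2604 genes (15.6%), DESeq2 called 156 of 12474 genes and limma voom with quality weights called 5567 of 16738.

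Several gene lists were set beside these differences. Of 20 immediate early genes, which neurons switch on within minutes of activity, 17 were lower and 3 higher with exercise than in controls, with a median log2 fold change of -0.76. In CSDS 14 were lower and 6 higher, with a median of -0.25. None passed with edgeR. Without control replicate 2, 18 were lower and 2 higher with exercise, 9 were lower and 11 higher in CSDS, and the medians were -0.39 and 0.02. Fos, the best known of them, had log2 fold changes of -1.59 ± 0.37 with exercise (edgeR adjusted p = 0.146) and -1.19 ± 0.36 in CSDS (edgeR adjusted p = 0.993). With the immediate early gene level as a covariate, the log2 fold change of Sgk1 was -1.05 ± 0.24 with exercise and -0.86 ± 0.19 in CSDS. The 20 markers of mature oligodendrocytes had medians of -0.06 with exercise and -0.03 in CSDS. Their mean level ran from 6.51 to 7.56 log2 CPM with exercise, 6.54 to 7.24 in CSDS and 6.49 to 7.26 in controls. Of 10 thalamic markers, 6 were higher and 4 lower with exercise than in controls, and all 10 were lower in CSDS, with medians of 0.25 and -1.17 and none called by edgeR. Their mean level ran from 3.23 to 6.43 log2 CPM with exercise, 3.13 to 3.54 in CSDS and 3.26 to 6.00 in controls. Choroid plexus and endothelial markers were mostly lower in both defeated groups, again with none called by edgeR. Of 10 choroid plexus markers, 9 were lower with exercise and 10 in CSDS, with medians of -0.60 and -0.26, and of -0.85 and -0.52 without control replicate 2. Of 10 endothelial markers, 9 were lower with exercise and 9 in CSDS, with medians of -0.17 and -0.14, and of -0.15 and -0.08 without that library. The endothelial mean level ran from 5.08 to 5.45 log2 CPM with exercise, 5.12 to 5.32 in CSDS and 5.21 to 5.68 in controls. With the choroid plexus level as a covariate, the log2 fold change of Sgk1 was -0.93 ± 0.19 with exercise and -0.81 ± 0.18 in CSDS. The part of the thalamic, oligodendrocyte and endothelial lists in the Sgk1 difference was not tested. In whole tissue, fewer cells of a type and less RNA per cell cannot be told apart.

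Among mice of the same group, Sgk1 ran with the genes that glucocorticoids induce. The rule did not use differences within a group, so this relation was tested after group means were removed. Over 17 mice without control replicate 2, Sgk1 and the mean log2 CPM of 28 glucocorticoid-induced genes had a Pearson r of 0.83 (permutation p = 0.00015, adjusted p = 0.00585 over 39 relations) and a Spearman rho of 0.76 (permutation p = 0.00142, adjusted p = 0.0277). The mouse with the highest list level in its group also had the highest Sgk1 level in all 3 groups. These were exercise replicate 5, with 5.23 log2 CPM for the list, CSDS replicate 6, with 5.11, and control replicate 3, with 5.33.

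Those high mice carried part of the relation. Without the 2 mice farthest from the median of the list level, r was 0.71 and its permutation p 0.00582, but the p adjusted over 39 relations was 0.158. Without the highest mouse of each group, an alternative chosen after seeing the data, r was 0.63 over 14 mice (permutation p = 0.0356, adjusted p = 0.269). Without those mice, therefore, the relation did not pass after adjustment, in tests that also held fewer mice. By group r was 0.85 in controls (n = 5), 0.81 in CSDS and 0.84 with exercise (n = 6 each). These values include the high mice and are given with no test. With all 18 libraries r was 0.81, and after a correction for transcript GC content 0.75 (permutation adjusted p = 0.0368). The rho after that correction was 0.52 and did not pass (permutation p = 0.0465, adjusted p = 0.207). With endothelial markers Sgk1 had an r of 0.43 and a rho of 0.44 (permutation adjusted p = 0.319 and 0.256). For oligodendrocyte markers r was 0.19 and rho 0.29 (permutation adjusted p = 0.798 and 0.656), and for immediate early genes r was -0.17 and rho -0.26 (permutation adjusted p = 0.798 and 0.671). Over the 14 mice the oligodendrocyte r was 0.57 (permutation p = 0.0422, adjusted p = 0.269), near that of the glucocorticoid-induced list. By group it was 0.87 in controls (n = 5), 0.04 in CSDS and -0.16 with exercise, given with no test. Control replicate 3, with the highest Sgk1, also had the highest oligodendrocyte, endothelial and thalamic list levels among controls.

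Of the 28 glucocorticoid-induced genes, 25 had a positive r with Sgk1 by themselves, with a median of 0.44. The highest were Arrdc2, an arrestin-domain protein, at 0.77, the cell cycle inhibitor Cdkn1a at 0.70, the NF-kappaB inhibitor Nfkbia at 0.69 and the hypoxia-inducible factor subunit Hif3a at 0.69. The mTORC1 inhibitor Ddit4 stood at 0.67 and Tsc22d3, which encodes the leucine zipper protein GILZ, at 0.50. Not all classical targets did so. The receptor co-chaperone Fkbp5 stood at 0.33, Zbtb16 at 0.16, Klf15 at -0.07 and Klf9 at -0.13. These single-gene values are descriptions over 17 mice that share the same libraries and depths.

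**Figure D2:**
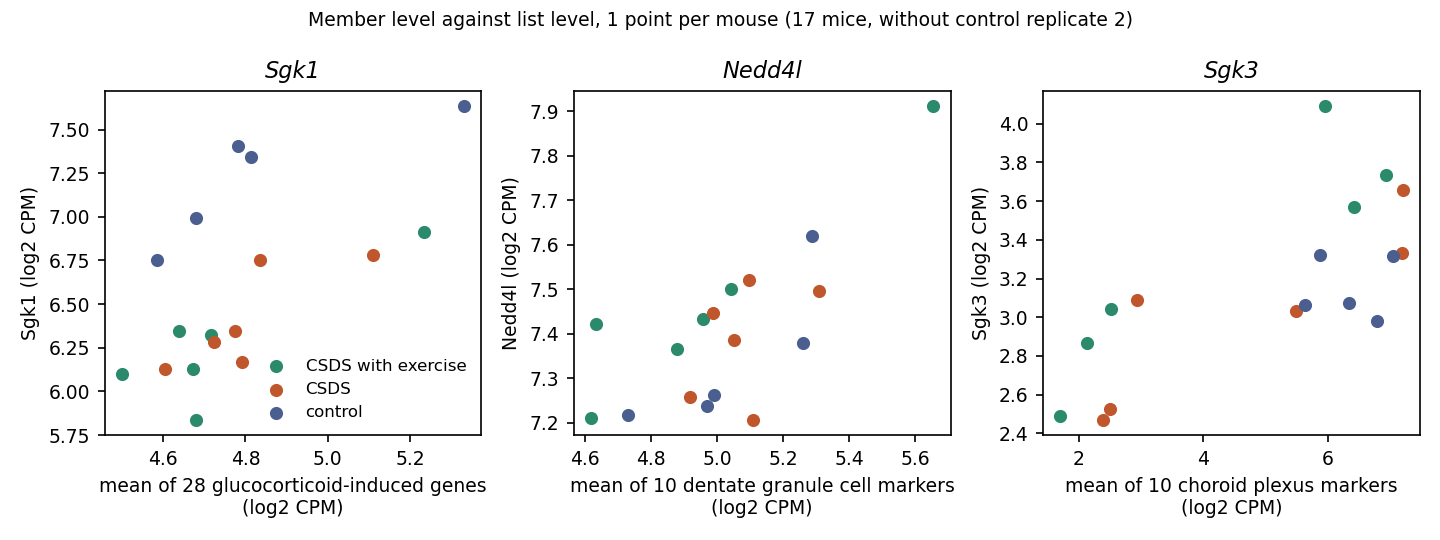
Level of each member in log2 CPM against the mean log2 CPM of a gene list, 1 point per mouse for 17 mice without control replicate 2, coloured by group. Sgk1 is higher where the 28 glucocorticoid-induced genes are higher while most controls lie above defeated mice at like list levels, Nedd4l is higher with 10 dentate granule cell markers, and Sgk3 falls into a set of mice with choroid plexus levels up to 2.93 and a set from 5.49 upwards.

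The median group differences of the glucocorticoid-induced genes as a list were small. Sgk1 was chosen for its own difference against control, so its size is not compared with theirs. With exercise against control 17 of 28 were lower and 11 higher, none was called by edgeR, and the median log2 fold change was -0.21 against 0.01 over all genes tested. In CSDS against control 19 were lower and 9 higher, none was called, and the median was -0.13 against 0.00 over all genes. At an unadjusted edgeR p under 0.05, 8 of the 28 were lower and 1 higher with exercise than in controls. Over all 16738 genes tested these counts were 735 and 1139. In CSDS against control 3 of the 28 were lower and 1 higher at that p, against 281 and 307 over all genes. Between the defeated groups 13 were lower and 15 higher in mice with exercise, with a median of 0.01. With the list level as a covariate, an alternative chosen after seeing the data, the log2 fold change of Sgk1 was -0.80 ± 0.12 with exercise and -0.74 ± 0.11 in CSDS. These are descriptions of the contrasts that chose Sgk1, and the part of the list in its difference was not tested.

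Single genes of that list went in both directions. Dusp1, a phosphatase of MAP kinases that neuronal activity also induces, had log2 fold changes of -0.96 ± 0.27 with exercise (edgeR adjusted p = 0.21) and -0.69 ± 0.27 in CSDS (edgeR adjusted p = 0.993). Without control replicate 2 they were -0.56 and -0.29. With all libraries DESeq2 called Dusp1 with exercise against control (adjusted p = 0.0479), where it called 109 of 18514 genes. Nfkbia gave -0.54 ± 0.15 with exercise and -0.37 ± 0.15 in CSDS, and -0.47 and -0.42 after the GC correction. Zbtb16, a zinc finger repressor, was on the other side, at 0.47 ± 0.17 with exercise and 0.65 ± 0.17 in CSDS. Fkbp5 gave 0.18 ± 0.19 and 0.28 ± 0.19. Klf15, a Krüppel-like factor, had the smallest p of the list between the defeated groups, at -0.59 ± 0.12 with exercise against CSDS (edgeR adjusted p = 0.143), and DESeq2 or another alternative called it in 5 of 33 settings. In that comparison DESeq2 called 156 of 12474 genes and limma voom 5567 of 16738.

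Of 7 tested genes for corticosteroid receptors and hormone metabolism, 6 were higher and 1 lower with exercise than in controls, and likewise 6 and 1 in CSDS, with none called by edgeR. The glucocorticoid receptor gene Nr3c1 had log2 fold changes of 0.03 ± 0.16 with exercise and -0.24 ± 0.16 in CSDS. The mineralocorticoid receptor gene Nr3c2 gave 0.30 ± 0.28 in both. Hsd11b1, whose enzyme regenerates active glucocorticoid, gave 0.26 ± 0.14 and 0.04 ± 0.14.

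The genes whose level ran most like Sgk1, by Pearson r after removal of group means over 17 mice, were ranked among 13678 genes with a mean of at least 1 CPM. The 8 highest were Selenbp1 and Acy3 at 0.82, Pttg1ip and Pstpip1 at 0.81, Anapc7 at 0.79, Prodh and Dazap2 at 0.78, and Arrdc2 at 0.77. The 4 lowest were Agtpbp1 at -0.90, Sema3c and Zfp354b at -0.83, and Zfp128 at -0.82. The GC correction moved several of these, to 0.48 for Pttg1ip, 0.40 for Dazap2 and -0.48 for Agtpbp1, while Arrdc2 was at 0.87 and Acy3 at 0.76. The values are given with no test.

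Sgk3 was a low gene whose spread, more than its mean, set the groups side by side. Its level ran from 5.52 to 16.9 CPM with a median of 9.96 CPM in mice with exercise, from 5.45 to 12.5 CPM with a median of 8.25 CPM in CSDS, and from 7.80 to 9.91 CPM with a median of 8.73 CPM in controls. The coefficient of variation was 41.0% with exercise, 32.1% in CSDS and 9.96% in controls, a difference in spread that was not tested. With exercise 3 of 6 mice lay above the highest control and 2 of 6 below the lowest, and in CSDS 2 lay above and 2 below. The means were 10.5 ± 4.29 CPM with exercise, 8.36 ± 2.68 CPM in CSDS and 8.88 ± 0.885 CPM in controls (SD, n = 6 each), and 8.84 ± 0.981 CPM in controls without replicate 2 (n = 5). Each Sgk3 value rests on 120 to 320 counts.

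The mean differences of Sgk3 did not pass the test. CSDS with exercise against control gave a log2 fold change of 0.23 ± 0.24 (edgeR adjusted p = 0.734, 95% interval -0.27 to 0.74). CSDS against control gave -0.09 ± 0.24 (edgeR adjusted p = 0.993, 95% interval -0.60 to 0.42), and CSDS with exercise against CSDS gave 0.32 ± 0.24 (edgeR adjusted p = 0.5, 95% interval -0.18 to 0.83). Without control replicate 2 the values against control were 0.24 with exercise and -0.08 in CSDS. After the GC correction the comparison of CSDS with exercise against control gave -0.09 and that against CSDS 0.00, and CSDS against control was 0.01 without CSDS replicate 6. The direction of Sgk3 was therefore not settled in any of the 3 comparisons.

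The Sgk3 level went with choroid plexus markers, whose levels fell into separate sets of mice, so no pooled correlation is given. In 6 mice, 3 with exercise and 3 with CSDS, the 10 markers averaged 1.70 to 2.93 log2 CPM, and Sgk3 ran from 5.45 to 8.42 CPM with a median of 6.43 CPM. In 11 mice the markers averaged 5.49 to 7.20 log2 CPM, and Sgk3 ran from 7.80 to 16.9 CPM with a median of 9.91 CPM. After group means were removed, r was 0.96 within the 6 mice and 0.30 within the 11, given with no test. Within the exercise group the 3 mice with low marker levels had 5.52, 7.19 and 8.15 CPM of Sgk3, and the 3 with high levels had 11.8, 13.2 and 16.9 CPM. Within CSDS the values were 5.45, 5.67 and 8.42 CPM at low marker levels and 8.08, 9.99 and 12.5 CPM at high levels.

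These sets did not overlap within the exercise group, and in CSDS they overlapped by 1 mouse on each side. Control replicates other than 2 were all in the high set, with 7.80 to 9.91 CPM of Sgk3. Control replicate 2 had the lowest marker level, 0.72 log2 CPM, and 9.12 CPM of Sgk3. With the choroid plexus level as a covariate, an alternative chosen after seeing the data, the log2 fold change of Sgk3 was 0.29 ± 0.18 for CSDS with exercise against control (edgeR adjusted p = 0.478) and 0.34 ± 0.18 for CSDS with exercise against CSDS (edgeR adjusted p = 0.346). Over 17 mice Sgk3 had a rho of 0.61 with oligodendrocyte, -0.59 with CA pyramidal and 0.55 with thalamic markers (permutation adjusted p = 0.0948, 0.0982 and 0.0982). Exercise replicates 3 and 6, both in the high choroid set, had thalamic levels of 5.21 and 6.43 log2 CPM. The part of choroid plexus or of these other tissues in the Sgk3 level was not tested. Sgk1 had an r of -0.02 and a rho of 0.02 with the choroid plexus markers (permutation adjusted p = 0.983 and 0.945).

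Nedd4l overlapped most between the groups. The gene (ENSMUSG00000024589) lies on the plus strand at chr18:64887705-65217828 in GRCm38, with 34 transcripts in GENCODE M21, and the opposite-strand genes A330084C13Rik and AC102333.1 overlap it, with the same limit on strand. Its level ran from 148 to 241 CPM with a median of 172 CPM in mice with exercise, from 148 to 183 CPM with a median of 171 CPM in CSDS, and from 123 to 196 CPM with a median of 152 CPM in controls. The highest value, 241 CPM, was exercise replicate 4, and the lowest, 123 CPM, was control replicate 2. Means were 180 ± 31.8 CPM with exercise, 168 ± 14.7 CPM in CSDS and 157 ± 24.1 CPM in controls (SD, n = 6 each), and the control mean was 163 ± 19.8 CPM without replicate 2 (n = 5).

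Nedd4l passed in none of the comparisons. CSDS with exercise against control gave a log2 fold change of 0.20 ± 0.11 (edgeR adjusted p = 0.52, 95% interval -0.05 to 0.44). CSDS against control gave 0.10 ± 0.11 (edgeR adjusted p = 0.993, 95% interval -0.15 to 0.34), and CSDS with exercise against CSDS gave 0.10 ± 0.11 (edgeR adjusted p = 0.681, 95% interval -0.14 to 0.34). Without exercise replicate 4 the last of these was -0.02, and without control replicate 2 the values against control were 0.14 with exercise and 0.04 in CSDS. Over the 3 comparisons the intervals of Nedd4l reach from 0.904-fold to 1.36-fold.

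After group means were removed, Nedd4l went with markers of dentate granule cells. Over 17 mice r was 0.84 (permutation p = 0.00039, adjusted p = 0.0076 over 39 relations) and rho was 0.72 (permutation p = 0.00279, adjusted p = 0.0363). Of the 10 markers 9 had a positive r with Nedd4l, with a median of 0.72. They included the desmosomal gene Dsp at 0.85 and Prox1, the transcription factor that marks granule cells, at 0.78, and the exception was Tdo2 at -0.28. Within the defeated groups r was 0.94 with exercise and 0.43 in CSDS (n = 6 each, given with no test). Dentate markers were not alone in this. With exercise r was 0.96 for CA pyramidal markers, 0.96 for immediate early genes and 0.91 for microglia markers, but -0.14, 0.34 and -0.05 in CSDS. Over 17 mice the r with immediate early genes was 0.53 (permutation p = 0.0341, adjusted p = 0.162). For CA pyramidal neuron markers r was 0.69 and rho 0.56 (permutation p = 0.00905 and 0.0274, adjusted p = 0.0882 and 0.153), and with all 18 libraries the adjusted p of r was 0.0166. For dentate markers without the 2 mice farthest from the median r was 0.63 (permutation p = 0.0243, adjusted p = 0.19), so the adjusted call rests on those mice. Exercise replicate 4, with the highest Nedd4l, also had the highest dentate marker level, 5.66 log2 CPM. In its group it was highest for the CA pyramidal, immediate early and microglia lists too. With the dentate marker level as a covariate the log2 fold change of Nedd4l was 0.12 ± 0.09 for CSDS with exercise against control (edgeR adjusted p = 0.507).

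No pair of the 3 members passed the test for varying together, and 17 mice cannot exclude such a relation. After group means were removed, r over 17 mice was -0.03 between Sgk1 and Sgk3, with a rho of 0.02 (permutation adjusted p = 0.932 and 0.953 over 3 pairs). Between Sgk1 and Nedd4l r was -0.10 and rho 0.03 (permutation adjusted p = 0.932 and 0.953). Between Sgk3 and Nedd4l r was -0.45 and rho -0.30 (permutation adjusted p = 0.366 and 0.867), and r was -0.20 without the 2 mice farthest from the median of Sgk3. On a scale of CPM per kilobase of the median coding transcript, Sgk1 averaged 32.4 with exercise, 35.2 in CSDS and 61.5 in controls, and Nedd4l 56.6, 52.8 and 49.3. On the same scale Sgk3 averaged 2.84, 2.26 and 2.40. By these means Sgk1 was above Nedd4l in controls and below it in both defeated groups, an order that was not tested and rests on the transcript length used.

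The third kinase of the family, Sgk2, is not among the 3 genes but was measured. It averaged 2.35 ± 1.11 CPM with exercise, 2.67 ± 0.737 CPM in CSDS and 2.90 ± 0.277 CPM in controls (SD, n = 6 each). Its log2 fold changes were -0.30 ± 0.24 with exercise and -0.12 ± 0.24 in CSDS against control (edgeR adjusted p = 0.652 and 0.993). Of 10 kinases close to the Sgk family, Sgk2 among them, 5 were higher and 5 lower in each defeated group than in controls, and edgeR called none. The related kinase gene Akt1 gave -0.38 ± 0.15 with exercise against CSDS (edgeR adjusted p = 0.267). Over 33 settings it lay between -0.59 and -0.17, the last after the GC correction, and passed in 2, limma voom and without exercise replicate 4 (lowest adjusted p = 0.000787). In those 2 settings 5567 of 16738 and 625 of 16856 genes were called.

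Upstream of the kinases, none of 21 genes of PI3K, Pdk1 and mTORC2 was called by edgeR in any comparison with all 18 libraries. With exercise 13 were higher and 8 lower than in controls, in CSDS 8 were higher and 13 lower than in controls, and with exercise 14 were higher and 7 lower than in CSDS. The median log2 fold changes were 0.02, -0.04 and 0.10, against 0.01, 0.00 and 0.02 over all genes. In mice with exercise against CSDS, Rictor, the subunit that defines mTORC2, gave 0.31 ± 0.07 (edgeR adjusted p = 0.161) and Pdpk1 0.18 ± 0.07 (edgeR adjusted p = 0.247). After the GC correction both were 0.10. Prr5, which encodes the mTORC2 subunit Protor-1, gave -0.39 ± 0.14 before and -0.09 after it. Other settings called these genes, Rictor in 4 of 33 (lowest adjusted p = 0.00102), and Pdpk1 and Prr5 in 1 each, limma voom (adjusted p = 0.00717 and 0.00122). Limma voom called 5567 of all 16738 genes in this comparison, so a call by it sets few genes apart.

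Genes of reported Sgk1 substrates were spread around 0. Of 11, 6 were higher and 5 lower with exercise than in controls, 4 were higher and 7 lower in CSDS than in controls, and edgeR called none. Ndrg1, a widely used readout of Sgk1 activity through its phosphorylation, gave log2 fold changes of -0.02 ± 0.11 with exercise and 0.02 ± 0.11 in CSDS. Foxo3, a transcription factor that Sgk1 and Akt phosphorylate, gave -0.17 ± 0.14 and -0.23 ± 0.14. These are RNA levels, and phosphorylation was not measured.

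Among the 8 other HECT ligases of the Nedd4 family, 4 were higher and 4 lower with exercise than in controls, and 1 was higher and 7 lower in CSDS than in controls. With exercise 6 were higher and 2 lower than in CSDS, and edgeR called none in any comparison. Nedd4, the closest relative, gave 0.07 ± 0.08 with exercise and -0.04 ± 0.08 in CSDS against control. Itch gave -0.22 ± 0.08 in CSDS (edgeR adjusted p = 0.993), and Wwp1 gave 0.40 ± 0.18 with exercise against CSDS (edgeR adjusted p = 0.304), 0.08 after the GC correction, and a limma voom adjusted p of 0.0251. In that comparison limma voom called 5567 of all 16738 genes. Without control replicate 2 the median of the 8 genes in CSDS was -0.06, in place of -0.15.

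The 12 adaptors and 14-3-3 partners of Nedd4l gave 8 higher and 4 lower with exercise, 4 higher and 8 lower in CSDS, both against control, with none called by edgeR. The adaptor gene Ndfip1, which recruits Nedd4-family ligases, gave 0.02 ± 0.14 and -0.14 ± 0.14. Ywhaz, which encodes 14-3-3 zeta, gave 0.26 ± 0.09 with exercise against CSDS (edgeR adjusted p = 0.221), 0.18 after the GC correction, and a limma voom adjusted p of 0.000925. Of 25 channels and transporters under Sgk or Nedd4l control, 23 passed the filter on low counts. With exercise 13 were higher and 10 lower than in controls, in CSDS 15 were higher and 8 lower, and edgeR called none.

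Among those channels, Kcnq3, a subunit of the M-type potassium channel, had the smallest p. It gave 0.27 ± 0.08 with exercise against control (edgeR adjusted p = 0.259) and 0.32 ± 0.08 with exercise against CSDS (edgeR adjusted p = 0.198). Over 33 settings the value against CSDS lay between 0.21, after the GC correction, and 0.38, and it passed in 3, with DESeq2 or limma voom (lowest adjusted p = 0.00115). There DESeq2 called 156 of 12474 genes, or 334 of 14196 without control replicate 2, and limma voom 5567 of 16738. Scnn1a, the alpha subunit of the epithelial sodium channel that Nedd4l is best known for removing, was a low gene at a mean of 7.12 CPM, with -0.10 ± 0.15 with exercise and -0.09 ± 0.15 in CSDS. The astrocytic glutamate transporter gene Slc1a2 gave 0.16 ± 0.10 and 0.01 ± 0.10.

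**Figure D3:**
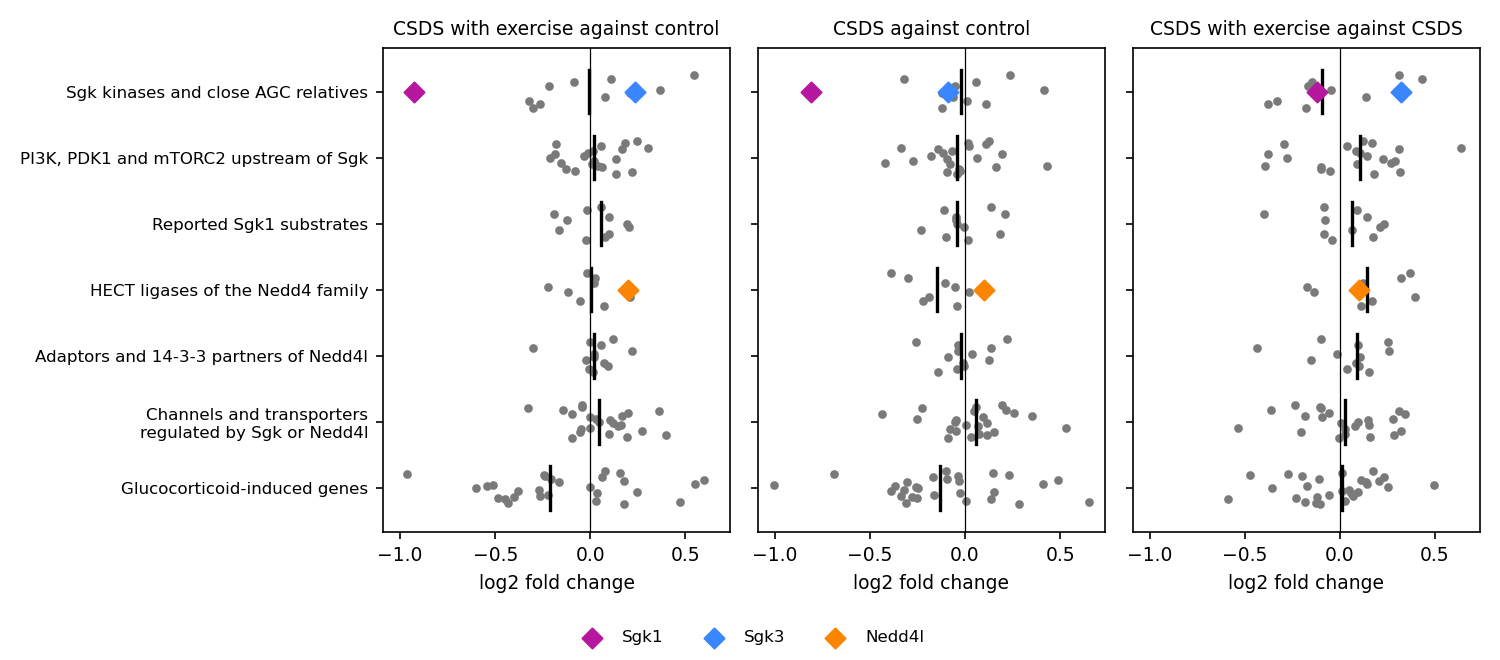
Log2 fold change of each tested gene in 7 lists of the Sgk and Nedd4l pathway, in 3 comparisons with the shared axis in log2 units. Grey points are genes, black lines are list medians without the members, and diamonds are Sgk1, Sgk3 and Nedd4l. Sgk1 lies at -0.93 and -0.81 against control, the differences it was chosen for, so nothing is read from its place there. Between the defeated groups it lies at -0.12.

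**Figure D4:**
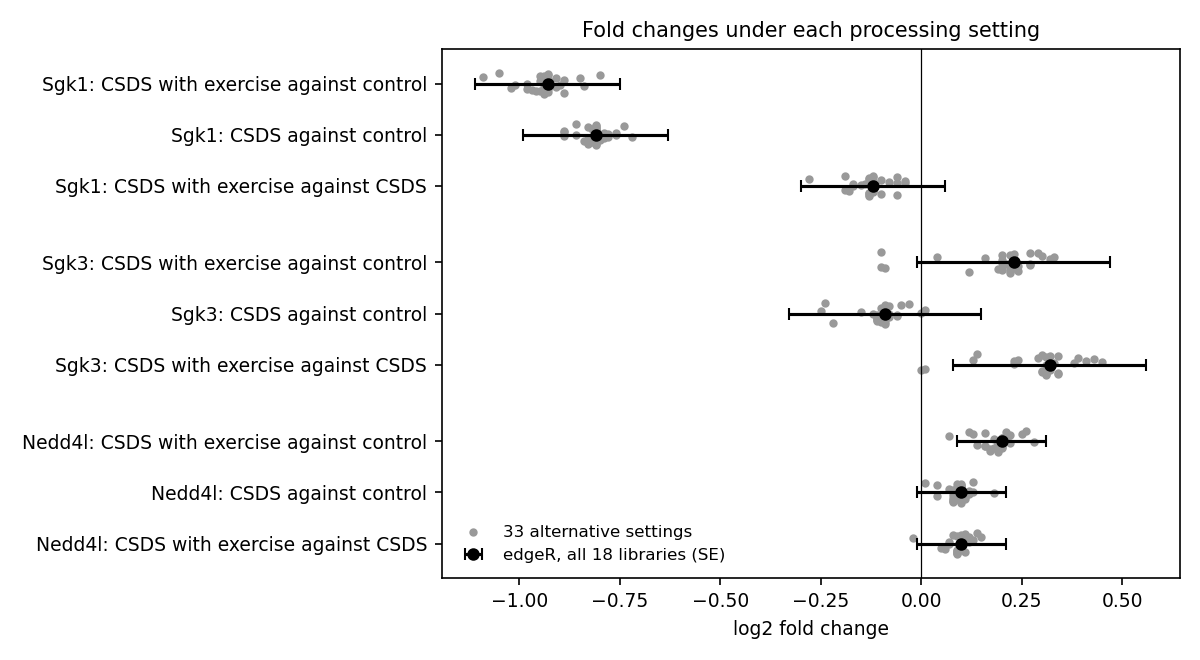
Log2 fold change of each member in 3 comparisons, with the SE as bars (black) and the values under 33 alternative settings (grey). The Sgk1 values against control stay between -1.09 and -0.72, while some settings carry Sgk3 in all 3 comparisons and Nedd4l in 1 to 0 or past it.

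Across the settings in the plot of alternatives, the members that were tested never passed. The lowest adjusted p over all alternatives was 0.197 for Sgk3, 0.283 for Nedd4l and 0.425 for Sgk1 between the defeated groups. Against control, Sgk1 was lower in every setting in both defeated groups, the direction it was chosen for.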

How the data were processed

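Hippocampal RNA of 18 mice was measured as 1 library per mouse. The authors deposited 1 table of expected counts, estimated per gene and not normalized. Per the submitters' processing notes, fastp, HISAT2, RSEM and GRCm38 (mm10) were used. Their versions, order, annotation release and strand setting were not found in the labels. Because RSEM shares ambiguous reads among genes, near-identical and overlapping genes have uncertain counts. Values that were not whole, 22.7% of those above 0, were rounded for the tests. Symbols matched 51884 identifiers; the other 5296, with 0.62% of counts, had none but were tested. Mitochondrial genes took 1.71% to 5.10% of counts.

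The gene test was that of edgeR 4.0.16 under R 4.3.3 (filterByExpr with minimum count 10 and minimum total 15, TMM scaling, quasi-likelihood F test, 18 libraries, 1 term per group), with Benjamini-Hochberg adjusted p under 0.05 over 16738 genes as a call. CPM used TMM-scaled library sizes and log2 CPM a prior count of 2. Intervals used 15 residual degrees of freedom. Relations across mice used 100000 two-sided permutations within groups on log2 CPM with group means removed. The first family held 39 relations, and the smallest p it could give was 1e-05. Alternatives used DESeq2 1.42.0, limma 3.58.1 voom, other scalings and filters, a replicate block, a spline correction for transcript GC content and left-out libraries. List levels as covariates were chosen after seeing the data. The scripts were tested on simulated counts.

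The members and all gene lists were chosen with earlier results of these data known. Named outside the members were fixed pathway genes, up to 4 list genes with the smallest p per comparison, and the 8 highest and 4 lowest genes by likeness to Sgk1. Cdkn1a, Hif3a, Ddit4, Klf9, Dsp, Tdo2 and the regional markers of the tissue check were named after their values were seen.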

Additional observations from a re-analysis of the deposited data

Results flagged for a closer look

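In 18 groups of 6 mice examined for the members and the 3 lists they were set against, 4 held a mouse whose distance to its nearest neighbour took up more than 0.625 of the group's range, which chance gives in about 1 group in 20. Nedd4l stood at 241 CPM in CSDS exercise replicate 4, with the next mouse at 181 CPM and the lowest at 148 CPM. The glucocorticoid-induced genes averaged 5.23 log2 CPM in CSDS exercise replicate 5, with the next mouse at 4.72 and the lowest at 4.50, and the same mouse had the highest Sgk1 of its group. The choroid plexus markers averaged 0.715 log2 CPM in control replicate 2, with the next control at 5.64 and the highest at 7.05. The dentate granule cell markers averaged 1.81 log2 CPM in the same control, with the next at 4.73 and the highest at 5.29.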

How the results depend on the processing

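Sgk1 kept its direction in every comparison and setting. Against control it was chosen for that direction, so this is a description there. With the replicate block its log2 fold changes against control were -0.97 with exercise and -0.84 in CSDS. Same-numbered mice did not deviate together (r of -0.465 to 0.255 over 18 pairs). No pairing by number was seen in these values, but they cannot exclude it. Sgk3 with exercise against control turned to -0.09 under the GC correction, -0.10 with the block added and -0.10 with the immediate early gene covariate, and against CSDS to 0.00 under the GC correction. In CSDS against control, leaving out 1 mouse gave Sgk3 -0.25 to 0.01, and in CSDS with exercise against CSDS it gave Nedd4l -0.02 to 0.15. The cause was not tested.

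For CSDS with exercise against control, 3 genes were called; 0 were without a low-count filter, with at least 1 CPM in 6 libraries, with the replicate block, with only the 2 groups, with GC correction (also with the block) and with the dentate or immediate early covariate. There were 1 with the glucocorticoid and 8 with the choroid plexus covariate, 109 with DESeq2 (89 without control replicate 2), 183 with limma voom and 0 to 13 when 1 mouse was left out, the 13 without exercise replicate 4. For CSDS with exercise against CSDS, 0 became 156 with DESeq2 (334 without control replicate 2), 5567 with voom, 2 unfiltered, and 1 with the 2 groups, GC correction or the dentate covariate. Leaving out 1 mouse gave 0 to 625, with 625 without exercise replicate 4 and 43 without CSDS replicate 5. For CSDS against control DESeq2 called 1. The r of Sgk1 with glucocorticoid-induced genes was 0.71 without the 2 farthest mice and 0.63 without each group's highest mouse, and that of Nedd4l with dentate markers 0.63 without the 2 farthest; none passed after adjustment. The 33 fold changes followed through 33 alternatives were those of the members and of some other named genes. Of the resulting values 1059 were kept, 23 passed and 7 changed sign. Kept means the same direction and side of the threshold. For Sgk1 against control, which had no test, it means the same direction and a shift smaller than the SD within groups. All 33 values in each of these comparisons count as kept, in the direction Sgk1 was chosen for. Sgk3 is limited by depth, at 120 to 320 counts.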
